A study of Sus scrofa with 6 samples.

Results

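The miRNAs of the HOX gene clusters in these data were the pig entries of miR-10a, miR-10b, miR-196a and miR-196b, chosen by name with or without an arm suffix. The deposited table held 6 such entries among 1645 (358 known pig miRNAs and 1287 predicted ones): miR-10a-5p, miR-10a-3p, miR-10b, miR-196a, miR-196b-5p and miR-196b-3p. Small RNA was sequenced from cultures of immature Sertoli cells, which support the germ cells inside the testis cords, isolated from the testes of pig fetuses of 80 to 90 gestation days. In the treated group (3 libraries) the cells received 250 µM AA2P, the hydrated sesquimagnesium salt of L-ascorbic acid 2-phosphate and a stable form of vitamin C, after 6 h of culture, and the control group (3 libraries) received none. Both groups grew in medium with 10% serum. How long the treatment lasted is not given in the sources used here. Nothing in the labels tells if replicate libraries stem from different cultures or different animals, so the p-values measure only the spread between these libraries, which may be technical.

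HOX genes lie in clusters and encode transcription factors that set position along the body axis. miR-10 and miR-196 hairpins lie between the HOX genes of these clusters and are often transcribed with their neighbours, and several of their known targets are HOX transcripts themselves, such as HOXB8 for miR-196 and HOXD10 for miR-10b. In embryos they are expressed mainly in the trunk and the posterior body. In the RefSeq annotation of the pig genome (Sscrofa11.1), used here for gene order only, the nearest named HOX genes on either side of MIR10A were HOXB3 and HOXB5, and those of MIR10B were HOXD8 and HOXD3. Nearness was taken from the edges of annotated gene spans, so a long span that reaches past another HOX gene is named in its place. MIR196A-1 lay between HOXB8 and HOXB13, and MIR196A-2 between HOXC10 and HOXC9. miR-196a is thus the product of hairpins in 2 clusters, whose reads cannot be told apart.

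Levels are TPM, here the reads of an miRNA relative to all counted reads of its library, with no length term. Whether different miRNAs were captured and sequenced equally well was not tested. Comparisons between miRNAs are therefore of their shares of reads, which may differ from their amounts in the cells. The step between low values put the depth at 25.8 to 36.0 Mreads (M for mega) per library, and a count of 0 would allow up to 0.0834 to 0.116 TPM (3 reads, counting error only). miR-21-5p, the most abundant miRNA, took 37.0 to 44.1% of the TPM in the AA2P libraries and 51.3 to 53.0% in the control libraries. Of the gonadal somatic markers, miR-140-3p stood at 1109 to 1249 TPM with AA2P and 1047.72 to 1170.26 TPM in controls. miR-140-5p stood at 99.58 to 123.93 TPM with AA2P and 75.05 to 91.26 TPM in controls. Its groups did not overlap, but it was not called (log2 fold change 0.42, limma adjusted p = 0.0577). miR-202-5p, an miRNA of gonadal somatic cells, reached at most 0.68 TPM with AA2P and 1.01 TPM in controls, and miR-202-3p at most 0.11 TPM. The 9 mesenchymal and myoid markers summed to 32.5 to 48.1 TPM with AA2P and 33.2 to 52.2 TPM in controls. The 7 blood markers summed to 4.48 to 14.3 TPM with AA2P and 4.87 to 5.90 TPM in controls, and the 2 endothelial ones to 86.8 to 111 TPM with AA2P and 98.4 to 112 TPM in controls. Within the blood list, miR-142-3p was called higher, at 1.98 ± 0.627 TPM with AA2P and 0.507 ± 0.0802 TPM in controls (limma adjusted p = 0.0293), and miR-142-5p was higher in every AA2P library (0.72 to 2.08 TPM) than in the controls (0.34 to 0.56 TPM). miR-223 stood at 5.40 TPM in AA2P replicate 1 and at most 0.06 TPM elsewhere, and miR-486 at 2.34 ± 0.710 TPM with AA2P and 3.76 ± 0.549 TPM in controls (limma adjusted p = 0.118). The 5 striated muscle markers summed to 193 to 278 TPM with AA2P and 134 to 179.96 TPM in controls. Of 10 germ cell markers 1 was listed, at 0.11 TPM or less. In such bulk libraries a change in the share of a cell type and a change per cell cannot be told apart, and the part of these other cells in the results was not tested. AA2P replicate 2 stood apart from the other AA2P libraries: the chi-square per degree of freedom of implied reads was 734.5 and 773 between it and them, against 241 between those others and 124 to 221 among controls, so the changes of the tested entries and the tested ratios are also given without it.

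The 6 entries fell into 3 tiers of TPM. miR-10a-5p and miR-10b were among the leading miRNAs of the libraries. miR-10a-5p, the product of the HOXB cluster, ranked between 6 and 7 among the known miRNAs in every library, and miR-10b, the product of the HOXD cluster, between 10 and 14. The 3 miR-10 entries together took 2.91 to 3.69% of the TPM with AA2P and 2.50 to 2.72% in controls. miR-196b-5p, which arises in the HOXA cluster of mammals, and miR-10a-3p, the passenger arm of the miR-10a hairpin, formed a middle tier at 109.5 to 191 TPM. miR-196a, of the HOXB and HOXC clusters, and miR-196b-3p, the passenger arm of miR-196b, stayed under 1 TPM in all 6 libraries.

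**Figure D1:**
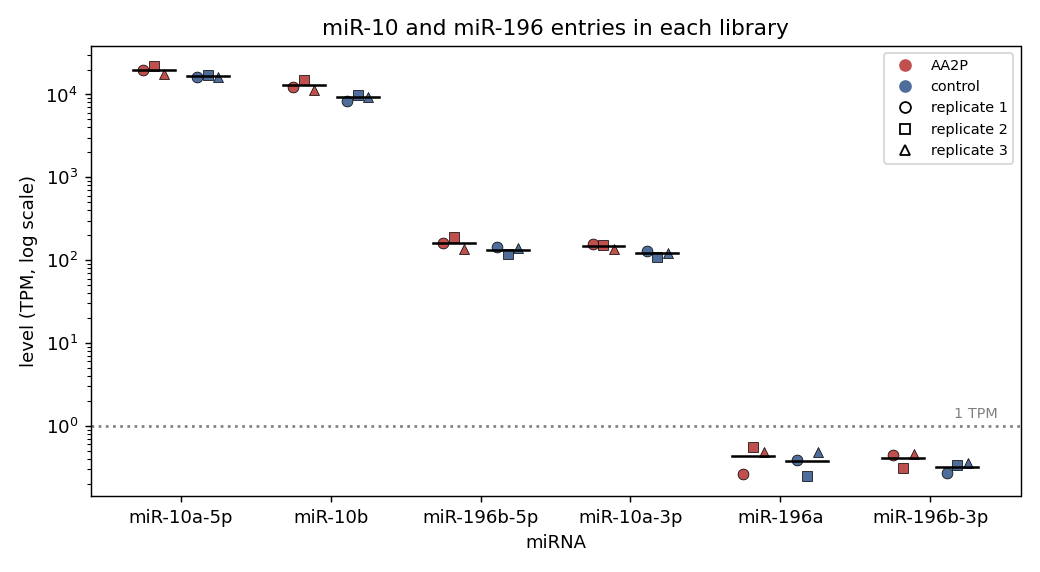
Level of each miR-10 and miR-196 entry in TPM (log axis) in the 3 AA2P and the 3 control libraries, 1 symbol per library and a line at the group mean. The entries stand in 3 tiers, and miR-196a and miR-196b-3p lie under the dotted line at 1 TPM, which marks the limit used for testing.

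Within the upper tier the order was the same everywhere. miR-10a-5p exceeded miR-10b in 6 of 6 libraries, and its lowest value (16274 TPM, in a control library) lay above the highest value of miR-10b (14976 TPM, in an AA2P library). In the middle tier miR-196b-5p exceeded miR-10a-3p in 6 of 6 libraries, with a ratio of their means of 1.10. The gap was narrowest in AA2P replicate 3 (137.36 and 136.83 TPM) and widest in AA2P replicate 2 (190.59 and 153.25 TPM), and the ranges over the libraries overlapped. In the lowest tier miR-196a exceeded miR-196b-3p in 4 of 6 libraries, at 7 to 20 and 7 to 15 reads per library, which is too few to order them. The step from the upper to the middle tier was 74.6-fold between the means of miR-10b and miR-196b-5p, and the step to the lowest tier was 331-fold between miR-10a-3p and miR-196a. miR-615, the other miRNA of a HOX cluster, which lies inside HOXC5 in the RefSeq annotation, was as scarce, at 0.19 to 0.50 TPM with AA2P and 0.13 to 0.31 TPM in controls.

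AA2P against control, the comparison of the study, was tested by limma on log2(TPM + 1) over the 433 entries that reached 1 TPM in 3 or more libraries, with calls at a Benjamini-Hochberg adjusted p under 0.05. Of the 6 entries 4 passed this filter. Of these 4, miR-10b was called higher with AA2P and the others were not called, against 19.9% of all tested entries called higher and 4.85% called lower. All 4 had a log2 fold change above 0, as had 73.0% of all tested entries. Their median log2 fold change was 0.28, against 0.25 over all tested entries.

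miR-10b stood at 12369, 14976 and 11405 TPM in the AA2P libraries, against 8435, 9870 and 9267 TPM in the control libraries. Every AA2P library lay above every control library, with AA2P replicate 2 the highest and control replicate 1 the lowest. miR-10b, known for its role in cell migration and invasion in human tumours, rose 1.41-fold in mean TPM (12917 ± 1848 and 9191 ± 720.3 TPM, SD, n = 3 each). Its log2 fold change was 0.48 (SE 0.120, 95% interval 0.19 to 0.78, limma adjusted p = 0.0313). The call was lost in several of the fits with 1 library left out, which also hold fewer libraries. The log2 fold change was 0.51 without AA2P replicate 1 (limma adjusted p = 0.0672) and 0.42 without control replicate 1 (limma adjusted p = 0.0979). It was 0.54 without control replicate 2 (limma adjusted p = 0.0606) and 0.49 without control replicate 3 (limma adjusted p = 0.08995). The call held without AA2P replicate 2, at a log2 fold change of 0.37 (limma adjusted p = 0.0419). It also held without AA2P replicate 3, at 0.57 (limma adjusted p = 0.0319).

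miR-10a-5p stood at 19640, 21809 and 17575 TPM in the AA2P libraries, against 16440, 17233 and 16274 TPM in the control libraries. The groups did not overlap, but AA2P replicate 3 lay only just above control replicate 2. The ratio of the means was 1.18, with a log2 fold change of 0.24 (SE 0.0914, 95% interval 0.01 to 0.46) that did not pass (limma adjusted p = 0.110), and without AA2P replicate 2 it was 0.16 (limma adjusted p = 0.180). It did pass without AA2P replicate 3, the lowest AA2P library, with a log2 fold change of 0.31 (limma adjusted p = 0.0480).

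Its passenger arm miR-10a-3p stood at 155, 153 and 137 TPM with AA2P, against 129.97, 109.5 and 122 TPM in controls. These groups did not overlap either. The log2 fold change was 0.30 (SE 0.0987, 95% interval 0.06 to 0.54) and did not pass (limma adjusted p = 0.0746), and without AA2P replicate 2 it was 0.28 (limma adjusted p = 0.153). It passed where the mean of a tested entry had to reach 10 TPM (limma adjusted p = 0.0420, the same log2 fold change). All 3 miR-10 entries thus had groups that did not overlap, with AA2P higher, as had 40.4% of all tested entries.

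miR-196b-5p, a repressor of HOX transcripts, stood at 159, 191 and 137 TPM with AA2P, against 143, 119 and 139.85 TPM in controls. The groups overlapped, because AA2P replicate 3 lay below 2 of the 3 control libraries. The log2 fold change was 0.27 (SE 0.144, 95% interval -0.08 to 0.62, limma adjusted p = 0.214), and without AA2P replicate 2, the highest library, it was 0.14 (limma adjusted p = 0.439). The interval does not exclude a change as large as that of miR-10b.

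The remaining miR-196 entries fell below the filter of 1 TPM. miR-196a stood at 0.26, 0.56 and 0.49 TPM with AA2P (7, 20 and 16 reads), against 0.39, 0.25 and 0.49 TPM in controls (10, 8 and 15 reads). miR-196b-3p stood at 0.45, 0.31 and 0.46 TPM with AA2P (12, 11 and 15 reads), against 0.27, 0.34 and 0.36 TPM in controls (7, 11 and 11 reads). The groups overlapped for both. In a fit without the filter the log2 fold change was 0.059 for miR-196a (95% interval -0.60 to 0.72, limma adjusted p = 0.916) and 0.087 for miR-196b-3p (95% interval -0.55 to 0.72, limma adjusted p = 0.850), where the pseudocount of 1 TPM exceeds the levels and shrinks any change, so a difference was not detectable at this depth.

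**Figure D2:**
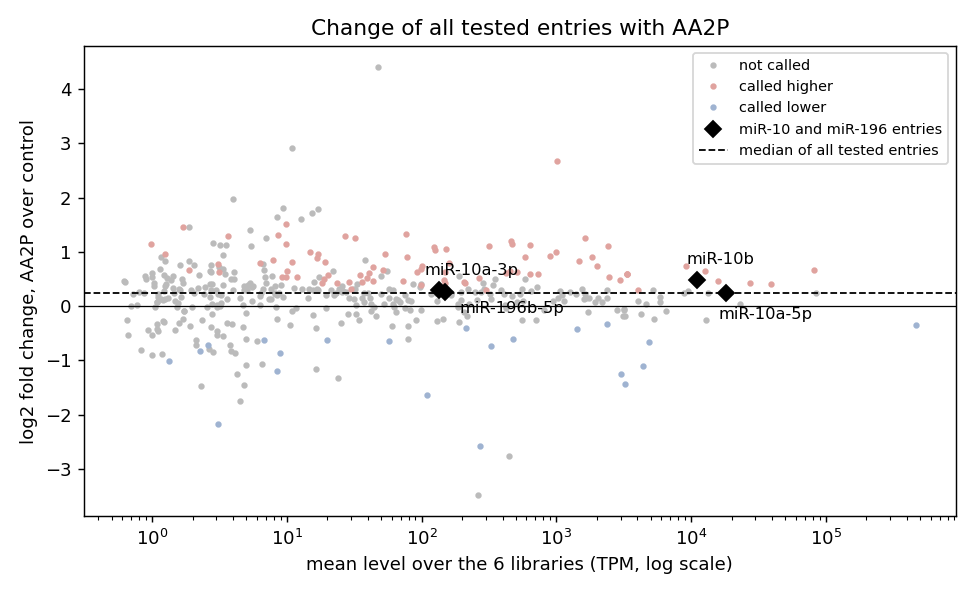
Log2 fold change of AA2P over control against mean level (TPM, log axis) for the 433 tested entries, with the tested miR-10 and miR-196 entries as black diamonds and the median of all tested entries as a dashed line. miR-10a-5p, miR-10a-3p and miR-196b-5p lie close to the median of 0.25, and miR-10b lies above it at 0.48.

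The TPM of a library share 1 total, so the changes of these 4 entries were set beside the median change of all tested entries. The log2 fold change of miR-10a-5p differed from the median of all tested entries by -0.012, that of miR-196b-5p by 0.018, that of miR-10a-3p by 0.054 and that of miR-10b by 0.24. With totals taken without miR-21-5p, the log2 fold changes were -0.060 for miR-10a-5p, -0.028 for miR-196b-5p, 0.0088 for miR-10a-3p and 0.19 for miR-10b. Totals without miR-21-5p were 1 of 5 other scalings, which put the median of all tested entries at -0.013 to 0.073. Under these 5, miR-10b kept a log2 fold change of 0.18 to 0.29 and lay 0.16 to 0.22 above the median. It was called under none of them (limma adjusted p = 0.125 to 0.363). miR-10a-5p ranged from -0.060 to 0.11 and miR-196b-5p from -0.028 to 0.071, each below 0 under 3 of the 5 scalings. miR-10a-3p ranged from 0.0088 to 0.11. A rise of miR-10b was therefore called in the deposited TPM and not under the other scalings.

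**Figure D3:**
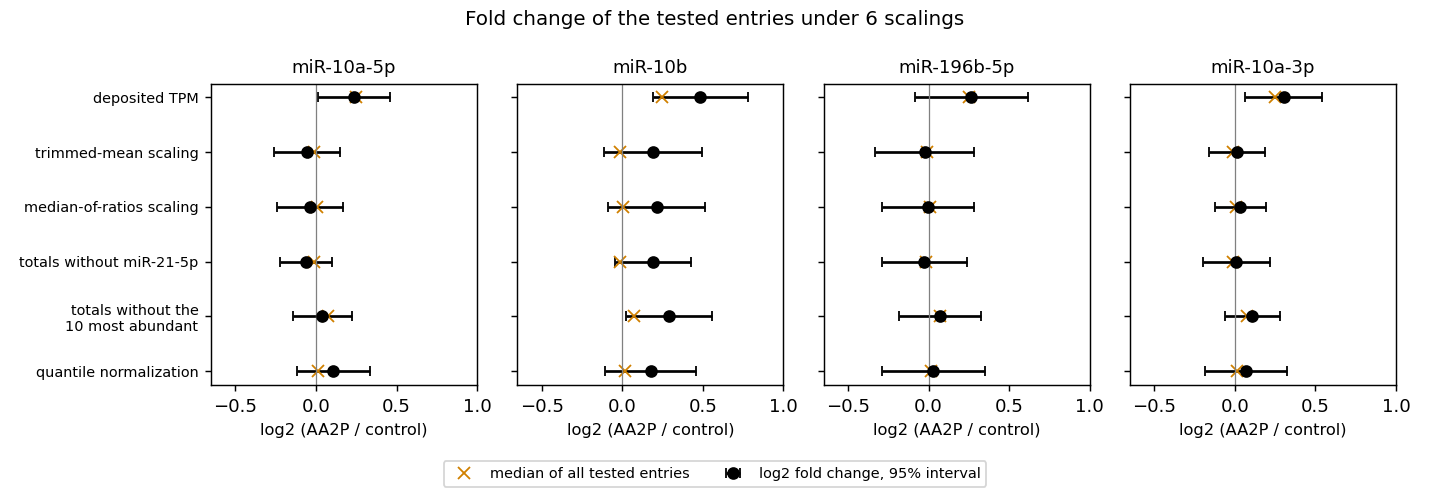
Log2 fold change of AA2P over control with its 95% interval (points and bars) for the 4 tested entries in the deposited TPM and under 5 other scalings, beside the median of all tested entries (crosses). The points of miR-10b lie to the right of the median under all 6 scalings, and those of the other entries lie close to it.

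Proportions within a library do not change when a library is scaled by a single factor. The ratio of miR-10a-5p to miR-10b was 1.59, 1.46 and 1.54 in the AA2P libraries, against 1.95, 1.75 and 1.76 in the control libraries. Every AA2P library lay below every control library, so that miR-10b made up 38.6 to 40.7% of the sum of the pair with AA2P and 33.9 to 36.4% in controls. The log2 ratio was 0.61 ± 0.0634 with AA2P and 0.86 ± 0.0893 in controls (SD, n = 3 each), a difference of -0.25. By a two-sided exact permutation test p was 0.1, as low as this test can go with 3 libraries against 3 (adjusted p = 0.2 over the 2 ratios tested). The difference was -0.28 to -0.20 when any 1 library was left out, and -0.21 without AA2P replicate 2. Quantile normalization sets each value to the mean over the libraries of the values at its rank, and so alters proportions. It gave a log2 ratio of 0.73 ± 0.269 with AA2P and 0.80 ± 0.161 in controls, a difference of -0.070 with overlapping groups (two-sided exact permutation p = 1). The mature miR-10a-5p and miR-10b are near-identical, and how reads that match both were assigned is not given in the sources used here, so their split is less certain than their sum. Set against miR-100, a relative of the same family, miR-10b stood at 0.491, 0.718 and 0.483 with AA2P and 0.386, 0.401 and 0.439 in controls. The same ratio for miR-10a-5p was 0.779, 1.05 and 0.745 with AA2P and 0.752, 0.700 and 0.771 in controls, so the groups overlapped. Such ratios depend on the relative chosen. The log2 fold change was 0.04 for miR-100 and 0.14 for miR-99b, but 1.10 for miR-99a-5p, above the 0.48 of miR-10b.

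The arms of the miR-10a hairpin kept a wide gap. miR-10a-5p was 126, 142 and 128 times as abundant as miR-10a-3p in the AA2P libraries, against 126, 157 and 134 times in the control libraries. The groups overlapped, and the log2 difference of the arm ratio was -0.066 (SE 0.136, 95% interval -0.36 to 0.23, limma adjusted p = 0.859). Without control replicate 2, the library with the highest ratio, the difference was 0.025, and without AA2P replicate 2 it was -0.12. None of the 39 hairpins with both arms at a mean of at least 10 TPM was called (0% by limma, with 4 at an unadjusted p under 0.05 and a smallest adjusted p of 0.259), although 3 were called without control replicate 2.

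miR-196b-5p was 354, 615 and 299 times as abundant as its passenger arm with AA2P, against 531, 351 and 388 times in controls. Against miR-196a it was 612, 340 and 280 times as abundant with AA2P and 367, 477 and 285 times in controls. The log2 ratio of miR-196b-5p to miR-196a, with a pseudocount of 1 TPM on each, differed by 0.21 (two-sided exact permutation p = 0.4, adjusted p = 0.4), and by 0.15 without AA2P replicate 2. That pseudocount exceeds the level of miR-196a in every library, so the difference mostly follows miR-196b-5p and library scaling does not cancel. With a pseudocount of 0.1 TPM the difference was 0.11 (two-sided exact permutation p = 0.9). Both ratios rest on 7 to 20 reads of the scarcer entry, which limits them. The summed miR-10 entries exceeded the summed miR-196 entries 193 to 211 times with AA2P and 174 to 227 times in controls, so the balance of the miR-10 and miR-196 families overlapped between the groups.

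**Figure D4:**
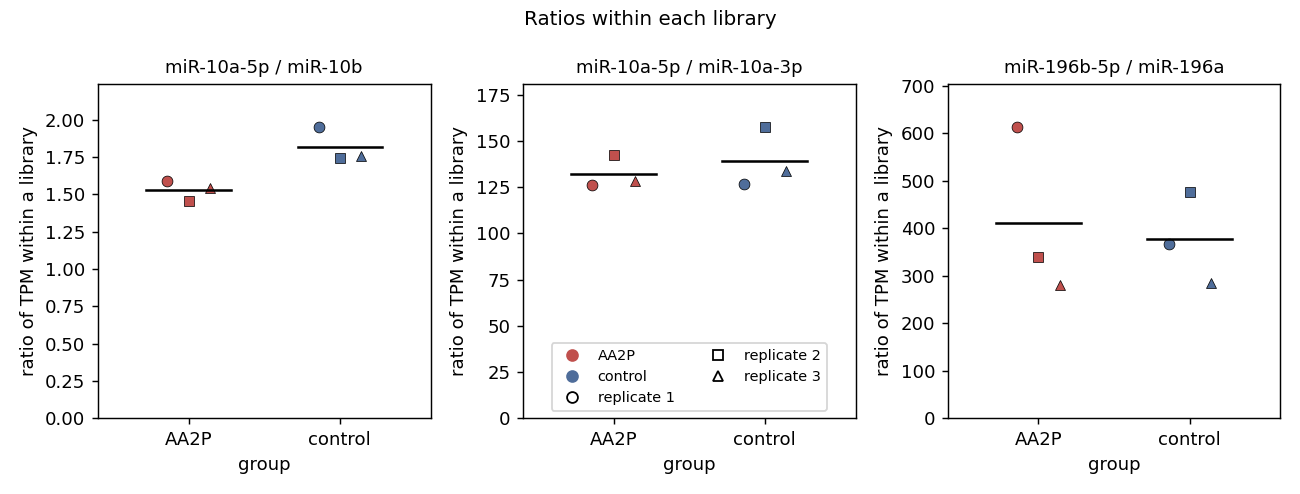
Ratios of TPM within each of the 3 AA2P and 3 control libraries, with a line at the group mean and axes that start at 0. The ratio of miR-10a-5p to miR-10b is lower in every AA2P library (1.46 to 1.59) than in every control library (1.75 to 1.95), while both other ratios overlap between the groups.

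The profiles most like these were sought among the known tested miRNAs by the root mean square difference of log2(TPM + 1), centred on its mean, over the 6 libraries. For miR-10a-5p they were miR-129a-5p and miR-129b, which the file lists with identical values, at a difference of 0.0486. For miR-10a-3p they were miR-2320-5p (0.0509) and miR-628-5p (0.0528). For miR-10b they were miR-671-5p (0.0934), which was called higher at 50.6 ± 2.30 TPM with AA2P and 36.3 ± 2.44 TPM in controls (limma adjusted p = 0.0138), and miR-1 (0.0938), an miRNA of striated muscle, at 225 ± 41.4 TPM with AA2P and 153 ± 24.1 TPM in controls (limma adjusted p = 0.0746). For miR-196b-5p they were miR-191 (0.0486) and miR-26a (0.0587). The nearest profiles of miR-10b thus lay farther from it than those of the other 3 entries lay from theirs. Profiles were not scaled to their spread, so this larger difference does not show that the profile of miR-10b is particular.

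Both families have relatives outside the HOX clusters. miR-99a-5p, miR-99b and miR-100 belong to the same family of sequences as miR-10 and repress MTOR among other targets. The seed of the let-7 miRNAs and miR-98, which repress LIN28 and cell cycle transcripts, overlaps that of miR-196 with a shift. Of the 3 relatives of miR-10, miR-99a-5p was called higher with AA2P and the others were not called, against the same 19.9%, with a median log2 fold change of 0.14. miR-99a-5p stood at 3571, 3421 and 2857 TPM with AA2P, against 1664, 1360.12 and 1564 TPM in controls, a log2 fold change of 1.10 (limma adjusted p = 0.00299) that was called under the 5 other scalings as well. Its other arm, miR-99a-3p, stood at 4.17 ± 1.20 TPM with AA2P and 2.10 ± 0.51 TPM in controls. miR-100 stood above miR-10a-5p in mean level, at 23222 ± 2205 TPM with AA2P and 22532 ± 1853 TPM in controls, and had a log2 fold change of 0.04 (limma adjusted p = 0.746), and miR-99b one of 0.14 (limma adjusted p = 0.294).

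Of the 8 relatives of miR-196, let-7c, let-7g and let-7f-5p were called higher and 5 were not called, against 19.9% of all tested entries called higher. They had a median log2 fold change of 0.27, close to the 0.25 of all tested entries. These relatives were far more abundant than miR-196: let-7i-5p stood at 91602 ± 10198 TPM with AA2P and 77168 ± 2686 TPM in controls, and let-7f-5p at 44951 ± 5924 TPM with AA2P and 33559 ± 1920 TPM in controls. let-7g stood at 31535 ± 4175 TPM with AA2P and 23349 ± 1801 TPM in controls, and let-7a at 14536 ± 2434 TPM with AA2P and 12365 ± 2041 TPM in controls. Both let-7g and let-7f-5p lost their calls with each of the 5 other scalings. let-7c (log2 fold change 0.53, limma adjusted p = 0.0128) kept its call with 2 of them. With quantile normalization let-7i-5p was called lower (log2 fold change -0.21, limma adjusted p = 5.3e-06). In the deposited TPM let-7i-5p was not called, and every AA2P library (82896 to 102822 TPM) lay above every control library (75468 to 80265 TPM). Quantile normalization sets each value by its rank within the library, so the call of let-7i-5p follows the order of miRNAs within a library and does not show a fall in TPM.

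**Figure D5:**
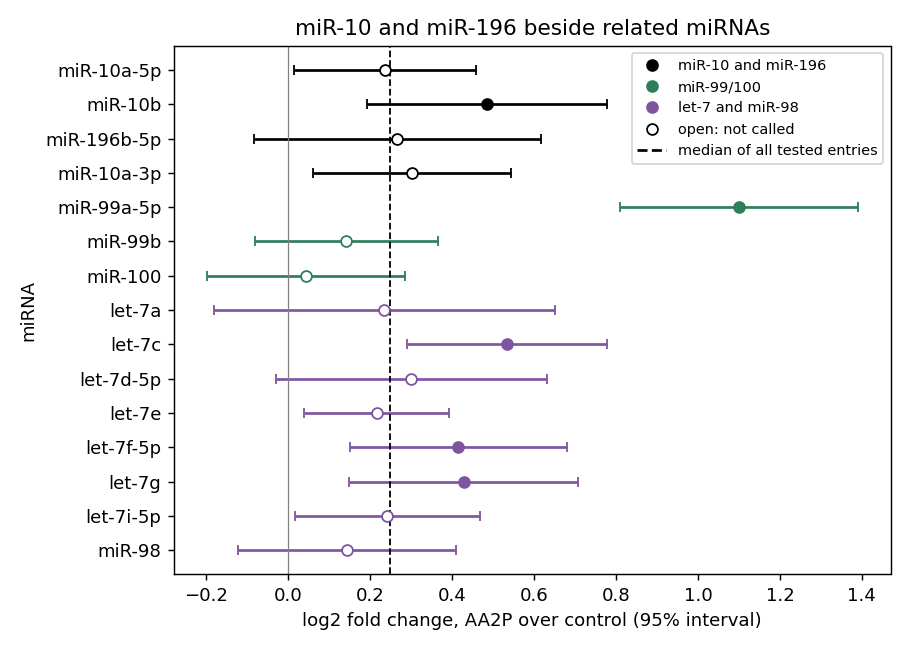
Log2 fold change of AA2P over control with its 95% interval for the tested miR-10 and miR-196 entries (black), the miR-99/100 relatives of miR-10 (green) and the let-7 and miR-98 relatives of miR-196 (purple), with filled points for calls and a dashed line at the median of all tested entries. miR-99a-5p stands apart at 1.10, while the miR-10 and miR-196 entries lie between 0.24 and 0.48.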

How the data were processed

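Values of 3 small RNA libraries of AA2P-treated cells and 3 of control cells were read from 1 table of TPM deposited by the authors, its 1645 values per library given to 2 decimals. Per the submitters' processing notes the tool was Bowtie, for which neither version nor use is stated. The build, the miRBase release and the treatment of reads that fit several near-identical miRNAs were not given in the sources used here. Columns sum to 999999.82 to 1000000.08 TPM, and 99.6% or more of the low values were whole reads to within 0.0051 TPM, which gave the depths. The values were tested as TPM, with no count test.

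Groups follow the labels. limma 3.58.1 in R 4.3.3, with a mean-variance trend, was fitted to log2(TPM + 1) of the 433 entries that reached 1 TPM in 3 or more libraries, which understates changes of low entries, and p-values were adjusted over all of them. Arm ratios were tested by limma over 39 hairpins, and ratios of paralogs by exact permutation. The script was tested on simulated data. Libraries with the same number deviated together with correlations of 0.288, 0.062 and 0.177. These were not set against libraries of different numbers, so pairing is not excluded. The labels name no batch, and no block was used in the main fit. Named were all entries of the rule, miR-615, every miR-99/100 entry, the 4 most abundant let-7 and miR-98 entries, and the 2 profiles nearest to each member with a mean of at least 10 TPM. let-7c was named after its values were seen, to complete a count. The members and lists were chosen with earlier results of these data known. Alternatives were other pseudocounts, filters, scalings and variance models, a replicate block and leaving out each library.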

Additional observations from a re-analysis of the deposited data

How the results depend on the processing

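Depth limits miR-196a and miR-196b-3p, at 7 to 20 reads per library, and 3 libraries per group limit every test. The count of all entries called higher (86) and lower (21) was 47 and 50 with trimmed-mean scaling, 48 and 50 with median-of-ratios scaling, 39 and 43 with totals without miR-21-5p, 55 and 36 with totals without the 10 most abundant miRNAs, 44 and 40 with quantile normalization, and 48 and 9 with no filter on low values. When 1 library was left out they were 54 to 78 and 8 to 20, lowest without control replicate 3. The check used cannot tell if the libraries' numbers pair them, since libraries of different numbers were not compared. With the replicate number as a block the counts were 52 and 11, while the log2 fold change of miR-10b stayed 0.48 (limma adjusted p = 0.0435).

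miR-10b was called in 8 of 19 alternatives. Its log2 fold change without a call was 0.19 with trimmed-mean scaling, 0.21 with median-of-ratios scaling, 0.19 with totals without miR-21-5p, 0.29 with totals without the 10 most abundant miRNAs, 0.18 with quantile normalization, and 0.48 both with no filter (limma adjusted p = 0.103) and without the trend (limma adjusted p = 0.0559). When 1 library was left out it was 0.37 to 0.57. miR-10a-5p was called in 1 of 19 alternatives. It was -0.056 with trimmed-mean scaling, -0.035 with median-of-ratios scaling and -0.060 with totals without miR-21-5p, and 0.16 to 0.31 when 1 library was left out. miR-196b-5p was called in 0 of 19 alternatives (lowest adjusted p = 0.106 by limma; unadjusted p = 0.113 in the deposited TPM). It was -0.024, -0.0034 and -0.028 under the same 3 scalings. miR-10a-3p was called in 1 of 19, at 0.30 where the mean had to reach 10 TPM. The arm ratio of miR-10a differed by -0.13 to 0.025 when 1 library was left out. The number of hairpins called by limma was 1 where both arms needed a mean of only 1 TPM, and 0 to 3 when 1 library was left out. Both paralog ratios kept their direction with other pseudocounts and when 1 library was left out. For miR-196b-5p to miR-196a the difference was 0.11 with a pseudocount of 0.1 TPM and 0.24 with 10 TPM. With quantile normalization, added after seeing the data, the difference in the log2 ratio of miR-10a-5p to miR-10b was -0.070, against -0.25 in the deposited TPM. That of miR-196b-5p to miR-196a was not run, since miR-196a is outside the normalized entries. The cause of these differences was not tested beyond the fewer libraries or entries that some alternatives hold by construction.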
